A study of Mus musculus with 6 samples.

Results

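The synaptonemal complex is the protein structure that joins homologous chromosomes along their length during meiotic prophase. Its axial (lateral) elements, which contain SYCP2 and SYCP3, lie along each homologue, and SYCP1 forms the transverse filaments that cross the space between them. A central element of SYCE1, SYCE2, SYCE3, TEX12 and SIX6OS1 holds the ends of the filaments together, and FKBP6, a protein with an immunophilin-like domain, is needed for normal pairing and synapsis in male meiosis. Axial elements form in leptotene, synapsis begins in zygotene and is complete in pachytene.

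The transcripts of these proteins were taken by name from the deposited table. The 9 genes were Sycp2 and Sycp3 (axial), Sycp1 (transverse), Syce1, Syce2, Syce3, Tex12 and 4930447C04Rik (central) and Fkbp6, out of 49584 rows, each matched from its Ensembl identifier to a symbol in GENCODE vM21. 4930447C04Rik is the annotation's symbol for Six6os1. All 9 were in the table and all 9 passed the filter on low counts, with no member below 4213 counts in any library.

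RNA of sorted mouse spermatocytes in leptotene and zygotene, from testes of postnatal day 12, was sequenced with Smart-seq2, a full-length protocol that starts from poly(A) tails. Of 6 libraries, 3 are labelled Srp68 SKO and 3 wild type, and the title names Srp68 knockout and meiotic arrest, so the comparison asks how the transcripts of early prophase differ when the SRP68 subunit of the signal recognition particle is removed. The labels do not spell out SKO, and the table's columns read CKO for the same libraries. For the part of the gene removed, any Cre driver and the strain, nothing was given in the labels used. Nor is it stated that replicates came from different mice, and p-values here reflect spread among these 6 samples that could be technical.

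Libraries held 11853738 to 15381473 counts. Levels are CPM, counts relative to the size of the library, scaled between libraries by TMM (trimmed mean of M values), and 3 counts corresponded to 0.174 to 0.289 CPM. Ribosomal protein genes took 5.37% to 5.89% of wild type and 8.25% to 8.62% of SKO counts. Srp68 itself had 337 to 505 counts in the wild type libraries and 70 to 147 in the SKO libraries (log2 fold change −1.52, SE 0.28; edgeR adjusted p = 0.00107). Of 10 markers of leptotene and zygotene that are not members, none was at 0, and their summed level was 4621 to 5659 CPM in wild type and 6681 to 8276 CPM in SKO libraries. The 8 markers of meiotic entry summed to 4854 to 5150 and 7277 to 7960 CPM, with Dazl the most abundant. Of the 8, 5 passed an edgeR adjusted p under 0.05, all higher, and Rec8, Mcm5 and Mcm6 did not. The log2 fold changes of the 5 were 2.28 for Stra8, 1.21 for Ccnb3, 1.14 for Tex15, 0.61 for Gm4969 and 0.37 for Dazl. The 10 pachytene markers, with Tex101 the most abundant, summed to 3294 to 4589 and 2212 to 2500 CPM. Of 6 tested, 4 were lower and 0 higher, and Hspa2 did not pass. Over all tested genes 14.1% were higher and 14.4% lower. Differentiating spermatogonia markers summed to 707 to 744 and 684 to 759 CPM, undifferentiated ones to 14.8 to 33.6 and 20.3 to 29.8 CPM. Markers of Leydig, peritubular myoid and endothelial cells summed to at most 13.3 CPM in any library, those of macrophages to at most 31.1 CPM (SKO replicate 3), and those of Sertoli cells to 71.1 to 85.8 CPM in wild type and 29.0 to 106 CPM in SKO. Cyp17a1 and Cyp11a1 (Leydig cells), Des (myoid cells) and Tnp2 and Prm2 (spermatids) were at 0 in all libraries. Other genes of these lists were not, as Star (Leydig cells) was at 0.451 to 6.6 CPM in wild type and 4.53 to 8.66 CPM in SKO libraries. Acta2 (myoid cells) was higher in SKO libraries, at 3.87 to 12.3 against 0.927 to 2.1 CPM (edgeR adjusted p = 0.00763). Tnp1 (spermatids) was also higher, at 2.14 to 3.62 against 0 to 0.579 CPM (0.0277). Spaca1, on the same spermatid list and more abundant, was lower, at 10.3 to 14.5 against 17.6 to 28.4 CPM (0.0306). The spermatid list summed to 19.1 to 29.5 CPM in wild type and 13.3 to 19.3 CPM in SKO libraries. Lyz2 (macrophages) was at 25.2 CPM in SKO replicate 3 and at 0.129 to 2.16 CPM in the other libraries. Erythroid markers summed to 2.77 to 137 CPM in wild type and 37.1 to 148 CPM in SKO libraries. The part of stage composition in the values below was not tested, and in bulk samples more cells of a stage and more RNA per cell cannot be told apart.

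In SKO spermatocytes 8 of the 9 transcripts were higher and 1, Fkbp6, was lower. All 9 passed edgeR's quasi-likelihood test at an adjusted p under 0.05, where 28.5% of the 13474 tested genes passed (14.1% higher and 14.4% lower). In each of the 9 the 3 SKO libraries lay on one side of the 3 wild type libraries, as they did in 43.8% of tested genes (21.6% with SKO higher and 22.2% with SKO lower). When the trend of fold change with transcript GC content and length was removed, 6 of the 9 passed, all 6 higher, where 23.4% of all tested genes passed (10.2% higher and 13.3% lower). With library totals in place of TMM, 8 of the 9 passed, beside 31% of all tested genes. The median log2 fold change of the members was 0.98, against −0.03 over all tested genes. Together the 9 genes took 1.77 ± 0.142% of wild type counts and 2.73 ± 0.262% of SKO counts (SD, n = 3 libraries; two-sided exact permutation test, p = 0.1, the smallest that 3 against 3 allows).

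**Figure D1:**
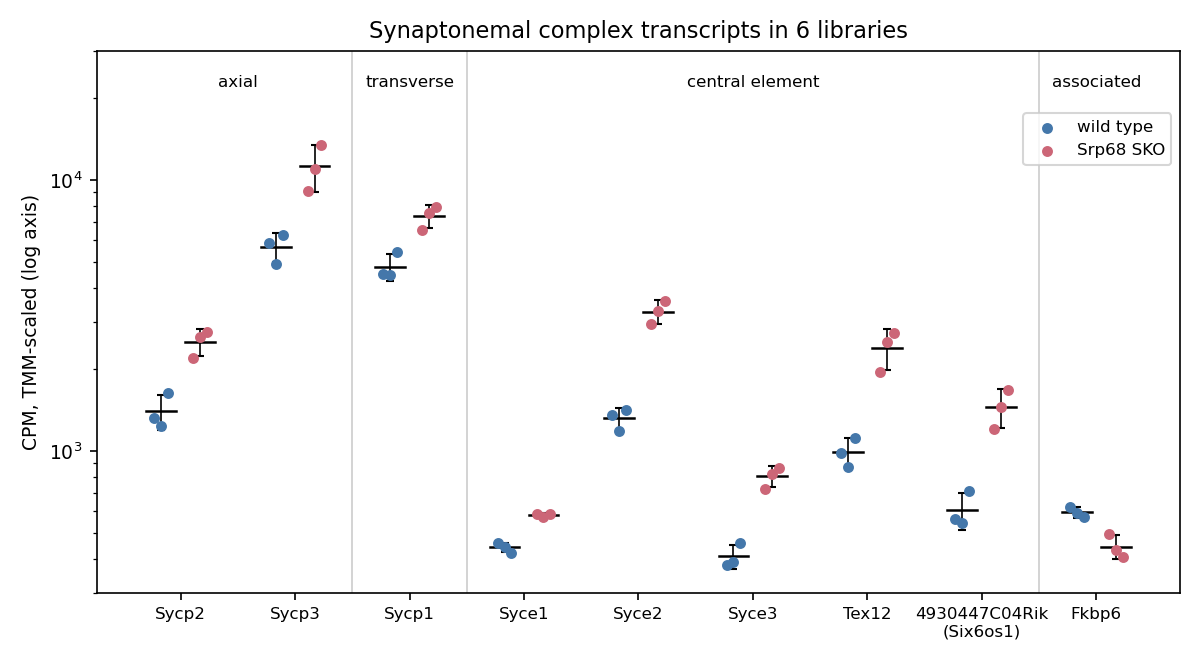
Level of each member in the 6 libraries, as TMM-scaled CPM on a log axis; points are libraries, bars the mean and SD of 3 libraries per genotype, and vertical lines part the elements of the complex. The SKO points of 8 members lie above all wild type points, and those of Fkbp6 lie below.

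The windows before 4 of the members that rose and before Fkbp6, the one that fell, are printed because they share a sequence, CACGTG, the E-box bound by basic helix-loop-helix factors. The sequences are RefSeq promoter windows of GRCm38.p6, read on the strand of the gene from 250 bases before the RefSeq start and ended just before the first base of any GENCODE exon of the gene, with CACGTG in capitals.
Sycp3 (axial), chr10:88459337-88459568, plus strand: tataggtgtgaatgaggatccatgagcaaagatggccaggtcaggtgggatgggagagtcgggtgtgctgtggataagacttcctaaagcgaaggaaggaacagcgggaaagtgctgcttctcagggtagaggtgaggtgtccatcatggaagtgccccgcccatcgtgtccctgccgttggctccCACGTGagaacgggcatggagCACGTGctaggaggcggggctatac
Sycp1 (transverse), chr3:102936101-102936350, minus strand: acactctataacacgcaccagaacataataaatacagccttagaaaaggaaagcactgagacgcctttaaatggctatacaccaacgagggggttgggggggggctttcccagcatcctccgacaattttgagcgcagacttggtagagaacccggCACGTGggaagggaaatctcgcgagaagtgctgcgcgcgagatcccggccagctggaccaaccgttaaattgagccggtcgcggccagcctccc
Tex12 (central), chr9:50561326-50561518, minus strand: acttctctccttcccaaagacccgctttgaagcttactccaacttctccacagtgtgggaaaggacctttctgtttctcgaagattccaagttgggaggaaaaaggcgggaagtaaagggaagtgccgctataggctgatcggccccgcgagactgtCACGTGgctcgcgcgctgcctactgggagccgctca
4930447C04Rik (central), chr12:72917907-72918015, minus strand: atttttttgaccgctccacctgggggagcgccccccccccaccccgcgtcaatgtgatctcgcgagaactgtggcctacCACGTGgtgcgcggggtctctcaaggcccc
Fkbp6, chr5:135350045-135350294, minus strand: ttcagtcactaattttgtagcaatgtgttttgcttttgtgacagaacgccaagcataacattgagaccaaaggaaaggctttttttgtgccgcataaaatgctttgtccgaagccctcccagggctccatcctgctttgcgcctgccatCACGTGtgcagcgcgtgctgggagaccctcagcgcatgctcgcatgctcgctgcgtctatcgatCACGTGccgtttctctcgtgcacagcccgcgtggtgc

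All 9 members had a RefSeq window, 12 windows in all. The 109 printed bases of the 4930447C04Rik window lie before the RefSeq start and within an intron of the longest span that GENCODE gives the gene. The full window of 250 bases runs on into an annotated exon. CACGTG, which reads the same on both strands, stood in the 250 bases before a RefSeq start of 6 of the 9 members (Sycp3, Sycp1, Syce2, Tex12, 4930447C04Rik and Fkbp6). By window, it stood in 7 of the 12 member windows and in 6.02% of all 32851 windows of that length. The 2 Fkbp6 windows are among the 7, and they overlap and hold the same 2 E-boxes. CACGTG contains CG, and member windows held 5 to 29 CG pairs, against a median of 6 over all windows (quartiles 2 and 16). The part of CG content in the matches was not tested. Counted from the RefSeq start, CACGTG began at −64 and −43 in Sycp3, −94 in Sycp1, −93 in Tex12, −171 in 4930447C04Rik and −101 and −37 in Fkbp6. In Syce2 it lay at −88 from the downstream of its RefSeq starts, within the annotated gene. GGCGGGAA, an E2F-type site searched on both strands, stood before Tex12 and Syce2 and in 1.86% of all windows, CNCCTCAG, the motif named for STRA8, before Syce2 and Fkbp6 and in 6.42%, and the NRF1-type palindrome before Syce1 alone and in 0.782%. In that order, they stood in 2, 2 and 1 of the 12 member windows. The Syce2 matches to GGCGGGAA and to CNCCTCAG overlap, and these 2 and the Fkbp6 match to CNCCTCAG lie, like the Syce2 E-box, downstream of the first annotated exon base and not in sequence before the gene. None of these sequences was in the windows of Sycp2 or Syce3. Matches are descriptions of the letters only, and E-boxes stood both before members that rose and before Fkbp6.

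Both axial element transcripts rose. Sycp3, which encodes the small coiled-coil protein that forms fibres along the chromosome axis, lies on chromosome 10 (ENSMUSG00000020059, GRCm38, 88459569 to 88473236, plus strand, 8 exons in its longest transcript). It was at 5854, 4890 and 6247 CPM in wild type replicates 1 to 3 and at 9146, 11004 and 13523 CPM in SKO replicates 1 to 3. Every SKO library exceeded every wild type library, and SKO libraries differed more among themselves (SD 2197 CPM) than wild type libraries did (698 CPM). The log2 fold change was 0.99 (SE 0.13; edgeR adjusted p = 7.05e-05), and 0.13 after the correction for GC content and length. Of the exon length of Sycp3, 52.2% overlaps exons of Chpt1, a phospholipid synthesis gene on the opposite strand, and no source gives the strand setting of the counting, so its counts are uncertain. Chpt1 itself had 0.295% to 1.12% as many counts as Sycp3 in the same library.

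Sycp2, whose large protein anchors SYCP3 to the axis, lies on chromosome 2 (ENSMUSG00000060445, 178345293 to 178407685, minus strand, 44 exons). Its wild type values were 1328, 1240 and 1637 CPM and its SKO values 2199, 2634 and 2753 CPM. The groups did not overlap, and the lowest SKO library was 1.34 times the highest wild type library. This was a log2 fold change of 0.85 (SE 0.12; edgeR adjusted p = 0.000107), or 0.34 with GC content and length corrected. The ratio of Sycp3 to Sycp2 counts per kilobase within a library was 19.1 ± 1.47 for wild type and 20.8 ± 2.03 for SKO, a difference below the spread between libraries (exact permutation p = 0.4).

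The transverse filament transcript rose 1.54-fold. Sycp1, whose rod-like protein zips the axes together, on chromosome 3 (ENSMUSG00000027855, 102818499 to 102936100, minus strand, 33 exons), was at 4516, 4450 and 5406 CPM in wild type and 6563, 7573 and 7926 CPM in SKO libraries. The closest libraries, wild type replicate 3 and SKO replicate 1, differed by 1.21 times. SKO libraries were higher by a log2 fold change of 0.62 (SE 0.10; edgeR adjusted p = 0.000363). With library totals it was 0.35 (0.00226), and with GC content and length corrected, as described further on, it was −0.14. A processed pseudogene, Sycp1-ps1 on chromosome 7, had 0 to 9 counts per library, so few reads were assigned to that copy.

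The 5 central element transcripts all rose, over a range from 1.32-fold to 2.48-fold. Syce2, whose protein assembles with TEX12 into fibres that extend synapsis along the chromosome, lies on chromosome 8 (ENSMUSG00000003824, 84872111 to 84888221, plus strand). It stood at 1364, 1185 and 1414 CPM in wild type and 2932, 3300 and 3585 CPM in SKO libraries. The lowest SKO value was 2.07 times the highest wild type value, the widest gap of the 9 members. Its log2 fold change was 1.31 (SE 0.10; edgeR adjusted p = 1.64e-06), higher than that of 95.3% of tested genes.

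Tex12, the partner of Syce2 in the same fibres, lies on chromosome 9 (ENSMUSG00000032065, 50556819 to 50561325, minus strand). Its wild type values were 981, 873 and 1120 CPM and its SKO values 1950, 2534 and 2737 CPM, with no overlap. The log2 fold change was 1.28 (SE 0.13; edgeR adjusted p = 9.41e-06), and 0.44 after the correction for GC content and length. Per kilobase, Tex12 was 1.45 ± 0.0739 times Syce2 in wild type and 1.42 ± 0.113 times in SKO libraries (exact permutation p = 0.8, difference −0.04 in log2). This uncorrected ratio did not differ beyond the spread. With GC content and length corrected the 2 genes parted, with Syce2 at a log2 fold change of 1.39 and Tex12 at 0.44.

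4930447C04Rik, whose product SIX6OS1 binds SYCE1 at the central element, lies on chromosome 12 (ENSMUSG00000021098, 72881109 to 72940774, minus strand). It was at 564, 542 and 712 CPM in wild type and 1207, 1460 and 1685 CPM in SKO libraries. All SKO libraries were higher, by a log2 fold change of 1.26 (SE 0.13; edgeR adjusted p = 1.45e-05), or 0.62 with GC content and length corrected. Six6 on the opposite strand covers 3.21% of its exon length and had at most 3 counts in a library.

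Syce1, whose protein is the SIX6OS1 partner at the central element, lies on chromosome 7 (ENSMUSG00000025480, 140777229 to 140787852, minus strand) and had the smallest rise. It was at 457, 444 and 422 CPM in wild type and 586, 571 and 585 CPM in SKO libraries. Groups were tight and apart, with an SD of 17.4 and 8.35 CPM. Its log2 fold change was 0.40 (SE 0.09; edgeR adjusted p = 0.00468). With library totals in place of TMM it was 0.13 and did not pass (adjusted p = 0.267). Within a library, 4930447C04Rik was at 0.337 ± 0.0648 times Syce1 per kilobase in wild type and 0.610 ± 0.101 times in SKO libraries, with no overlap (exact permutation p = 0.1). This ratio is not corrected for GC content. With GC content and length corrected, 4930447C04Rik was at 0.62 and Syce1 at 0.35, against 1.26 and 0.40 without.

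Syce3, the smallest central element protein, which links SYCP1 to the other central element proteins, lies on chromosome 15 (ENSMUSG00000078938, 89390174 to 89410503, minus strand). It was at 380, 391 and 457 CPM in wild type and 727, 822 and 868 CPM in SKO libraries. The log2 fold change was 0.98 (SE 0.11; edgeR adjusted p = 2.02e-05), or 0.53 with GC content and length corrected.

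Fkbp6, on chromosome 5 (ENSMUSG00000040013, 135291704 to 135350044, minus strand), went the other way. It was at 622, 590 and 570 CPM in wild type and 493, 431 and 405 CPM in SKO libraries. Every SKO library was below every wild type library, with an SKO mean at 74.6% of that of wild type. The log2 fold change was −0.42 (SE 0.10; edgeR adjusted p = 0.00635), and −0.68 with library totals. After the correction for GC content and length it was −0.22 and did not pass (0.0901).

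Most members shared their highest library. In both genotypes 7 of the 9 members were highest in replicate 3, the exceptions being Syce1 and Fkbp6, which were highest in replicate 1. SKO replicate 1 was the lowest SKO library for 7 of the 9 members, and wild type replicate 2 the lowest wild type library for 6. Fkbp6 was lowest in replicate 3 of both genotypes, and Syce1 in wild type replicate 3 and SKO replicate 2. Srp68 had 147, 70 and 72 counts in SKO replicates 1 to 3, and a link with the member levels was not tested. Replicate numbers did not pair the libraries over all genes, as the correlations of deviations between same-numbered libraries were 0.02, −0.05 and 0.04.

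Per kilobase of exon, the members covered a wide range of levels in wild type. Sycp3 led at 4481 ± 553 CPM per kilobase, rank 5 of all tested genes, and was followed by Sycp1 at 1347 ± 150, Tex12 at 976 ± 122, Syce3 at 740 ± 75.6, Syce2 at 671 ± 61.3, Fkbp6 at 339 ± 15.2, Syce1 at 302 ± 11.9, Sycp2 at 235 ± 35.0 and 4930447C04Rik at 101 ± 15.5 (SD, n = 3). Of neighbours in this order, only Syce3 and Syce2 overlapped. In SKO libraries Sycp3 was at 8880 ± 1738 CPM per kilobase (rank 2) and Tex12 (2369 ± 402) stood beside Sycp1 (2068 ± 199), with overlap between the pair. Syce2 (1663 ± 166) and Syce3 (1457 ± 129) overlapped, as did Sycp2 (424 ± 48.9) with Syce1 (397 ± 5.72), and Fkbp6 (253 ± 25.7) with 4930447C04Rik (243 ± 40). Of the summed level per kilobase of the 9 genes, Sycp3 made up 48.7 ± 1.58% in wild type and 49.8 ± 2.36% in SKO libraries, Sycp1 14.7 ± 0.791% and 11.7 ± 0.694%, and Tex12 10.6 ± 0.259% and 13.3 ± 0.634%. The place of 4930447C04Rik depends on the length used, since its exons cover 5981 bases and its longest transcript 2051. The level, rank and share of Sycp3 rest on its full exon length, of which 52.2% overlaps Chpt1, so they are uncertain too.

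Ratios within a library do not depend on the scaling between libraries, but they were not corrected for the trend with GC content. The central element sum over Sycp1, per kilobase, was 2.17, 2.05 and 2.01 in wild type and 2.89, 2.95 and 3.04 in SKO libraries, a log2 difference of 0.51 with no overlap (exact permutation p = 0.1). Sycp1 over the axial sum was 0.262, 0.307 and 0.291 in wild type and 0.243, 0.233 and 0.2 in SKO libraries (log2 difference −0.35, exact permutation p = 0.1). Most of the axial sum is Sycp3, at 4481 CPM per kilobase in wild type beside 235 for Sycp2. The Sycp3 counts are uncertain through the overlap with Chpt1. The central over the axial sum, at 0.594 ± 0.0316 and 0.665 ± 0.0511, overlapped between genotypes (exact permutation p = 0.2). Sycp1 was thus lower relative to both other elements in every SKO library. Sycp1 and the axial genes have less GC than Syce1, Syce2 and Syce3. Tex12 (34.3%) and 4930447C04Rik (34.5%), also of the central element, have about the GC content of Sycp1 (34.6%). With GC content and length corrected, Sycp1 was at a log2 fold change of −0.14. The 5 central element genes were then at 0.35 to 1.39, Sycp3 at 0.13 and Sycp2 at 0.34. The part of GC content in the ratios themselves was not tested. Among single pairs, Syce2 over Sycp1 was 0.5 ± 0.04 in wild type and 0.804 ± 0.0153 in SKO, Syce3 over Sycp1 0.55 ± 0.013 and 0.705 ± 0.00743 (exact permutation p = 0.1 each), and Syce1 over Sycp1 0.226 ± 0.0315 and 0.194 ± 0.0207 with overlap (exact permutation p = 0.2). The 9 ratios were computed as 1 family. The smallest p that the design allows is 0.1, so none could pass any adjustment.

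**Figure D2:**
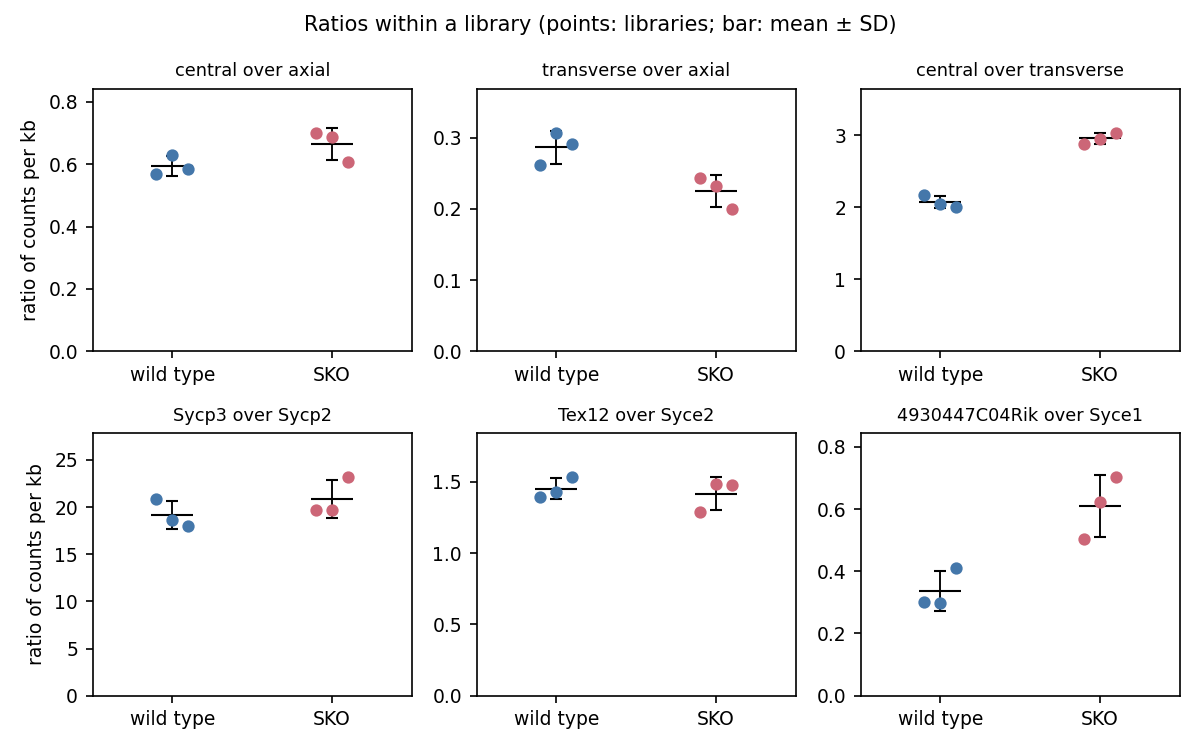
Ratios of counts per kilobase of exon within each library, from 0 on each axis; points are libraries and bars the mean and SD of 3. The ratio of the central element to Sycp1 averaged 2.07 in wild type and 2.96 in SKO libraries without overlap, while Sycp3 over Sycp2 and Tex12 over Syce2 overlapped between genotypes. No ratio is corrected for GC content.

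Of the 10 leptotene and zygotene markers, 5 were higher in SKO libraries, 2 were lower (Spo11 at −0.36 and Msh4 at −0.84 in log2; edgeR adjusted p = 0.0189 and 0.00215) and 3 did not pass. Of all tested genes 14.1% were higher and 14.4% lower. The sum of these markers was higher in each SKO library, and the summed members stood higher relative to them in each SKO library. The ratio of member counts to the counts of those markers was 3.14, 3.16 and 3.18 in wild type and 3.86, 3.86 and 4.12 in SKO libraries (exact permutation p = 0.1). Syce2, Tex12 and 4930447C04Rik were at 1.67, 1.63 and 1.61 times their wild type ratio to the markers. Sycp1 and Syce1 overlapped between genotypes on this measure (1.04 and 0.888 times), and Fkbp6 was at 0.508 times. Hormad1, at 2624 to 3517 CPM in wild type and 4290 to 5694 CPM in SKO libraries, gives most of the counts of this marker list, and its log2 fold change of 0.74 was 0.02 after the correction for GC content and length.

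Across all tested genes, fold changes were lower in the ranges of higher transcript GC content, while among the members genes of low and high GC content both had large fold changes. The 181 tested genes with a GC content under 36% had a median log2 fold change of 0.63, and the 453 genes at 60% or more a median of −0.58. Sycp3, Sycp1, Tex12 and 4930447C04Rik have 34.3% to 34.6% GC in their longest transcript and Sycp2 36.4%, while Syce1, Syce2, Syce3 and Fkbp6 have 49.3% to 52.9%. Sycp1, at 0.62, lay at the median of its GC range, and Tex12 and 4930447C04Rik lay above it. In the range from 48% to 52%, where the median was −0.10, Syce2 stood at 1.31 and Syce1 at 0.40. From 52% to 56%, with a median of −0.31, Syce3 stood at 0.98 and Fkbp6 at −0.42.

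**Figure D3:**
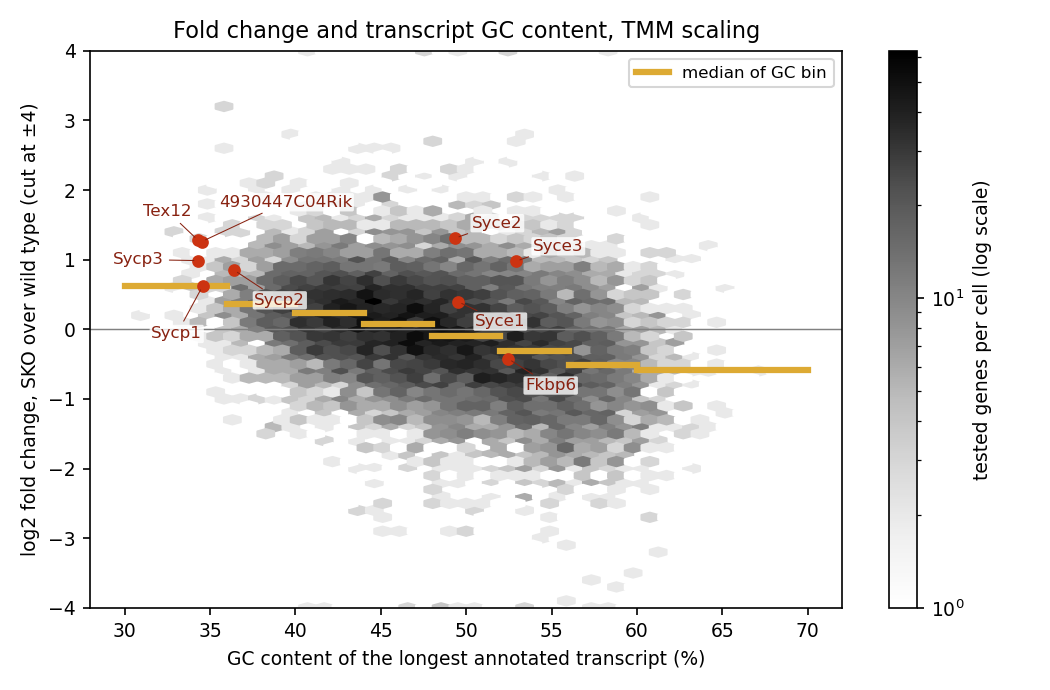
Log2 fold change of the tested genes against the GC content of the longest annotated transcript (shading, number of genes per cell on a log scale), with the median of each GC range as bars and the members as red points. Sycp1 lies on the bar of its range and Syce2 and Syce3 lie well above theirs.

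When the trends of each library with GC content and with length were taken out, 6 members were called, all 6 higher, beside 3151 of all tested genes (1366 higher and 1785 lower). With GC content alone 7 members and 25.4% of all tested genes were called, and with length alone 9 members and 26.2%. Syce2 kept its size, with a log2 fold change of 1.39 (SE 0.09; edgeR adjusted p = 1.93e-07), and Syce1 was at 0.35 (0.00911). 4930447C04Rik was at 0.62, Syce3 at 0.53, Tex12 at 0.44 and Sycp2 at 0.34, all still called. Sycp3, at 0.13 (adjusted p = 0.391), and Fkbp6, at −0.22 (0.0901), no longer passed. Sycp1 changed sign, to −0.14 (SE 0.07; adjusted p = 0.2). With GC content alone Sycp1 was at −0.08, Sycp3 at 0.26 (adjusted p = 0.0655), Syce3 at 1.15 and Fkbp6 at −0.28 (0.0303), and with length alone Syce3 was at 0.49. Syce2 and Syce1 thus hardly depended on this choice, while the direction of Sycp1 and the calls of Sycp3 and Fkbp6 did. The trend moves with genotype in these 6 libraries, and its source was not tested.

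**Figure D4:**
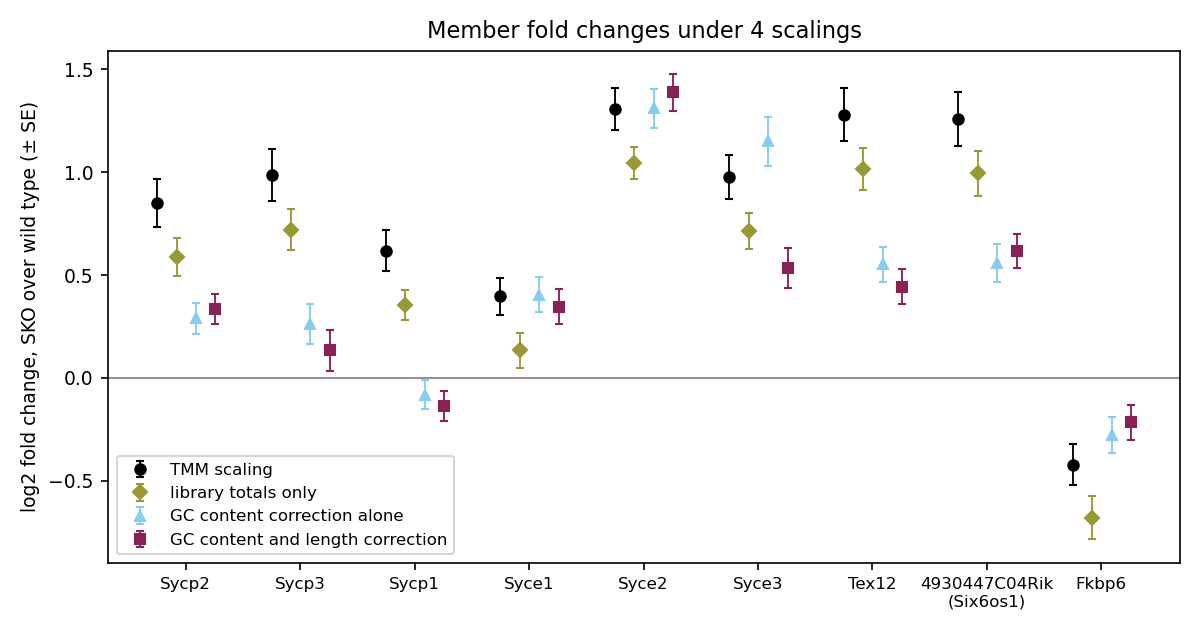
Log2 fold change of each member, SKO over wild type, with its standard error, under TMM scaling, library totals, and removal of the trend with GC content alone or with GC content and length. Syce2 stays above 1 in all 4, and Sycp1 lies below 0 after either GC correction.

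Genes that act with the complex moved in both directions. On the chromosome axis list, which holds the cohesins and HORMA domain proteins on which axial elements are built and factors that load on the axis, 7 of 14 genes were higher, 1 lower and 6 did not pass (median log2 fold change 0.43). Of 21 matched genes of synapsis initiation, telomere attachment and disassembly, 8 were higher, 6 lower and 7 did not pass (median 0.08). Over all tested genes 14.1% were higher and 14.4% lower in the same fit. With library totals the counts over both lists were 10 higher and 10 lower, in place of 15 and 7, and after removal of the GC content and length trend 12 and 6. Over all tested genes the split with library totals was 1010 higher and 3168 lower, and with the correction 1366 and 1785. Rad21l (1.74), a meiotic cohesin kleisin, and Smc1b (0.96), a meiotic cohesin core subunit, rose, as did Smc3 (0.53) and Hormad1 (0.74), whose protein marks axes before synapsis. After the GC content and length correction Hormad1 was at 0.02 and did not pass (edgeR adjusted p = 0.89), and with GC content alone Smc3 was at 0.24 (0.0887). Trip13, an ATPase gene that acts on HORMA proteins and the 1 axis gene that was lower, was at −0.38 (edgeR adjusted p = 0.0453), but at −0.35 with upper-quartile scaling it did not pass (0.067).

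The cohesin genes Stag3 (163 ± 15.2 and 168 ± 14.0 CPM in wild type and SKO; edgeR adjusted p = 0.85), Rec8 (2.46 ± 0.358 and 1.78 ± 0.906 CPM), Smc1a (42.4 ± 2.21 and 53.1 ± 2.66 CPM) and Rad21 (65.4 ± 5.16 and 74.4 ± 13.5 CPM) and the second HORMA gene, Hormad2 (179 ± 9.61 and 185 ± 12.0 CPM), did not pass. Terb2, which fixes telomeres to the nuclear envelope, rose from 161 ± 24.4 to 423 ± 74.8 CPM, by 1.39 on the log2 scale (edgeR adjusted p = 1.19e-05). Fbxo47, an F-box gene needed to keep synapsis, rose from 176 ± 4.19 to 330 ± 40.3 CPM (0.90; 5.08e-05).

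The decreases with the smallest p were in 1700102P08Rik (log2 fold change −1.02), the gene of SPO16 at synapsis initiation sites, the kinase genes Aurka (−1.50) and Plk1 (−1.63), and Psma8 (−0.88), a testis proteasome subunit. PLK1 and Aurora kinases act in taking the complex apart at the end of prophase. Psma8 fell from 251 ± 39.2 to 136 ± 22.0 CPM (edgeR adjusted p = 0.000389) and Plk1 from 28.8 ± 13.2 to 9.34 ± 1.73 CPM (0.00207), with 7.09% of its exon length shared with another annotated gene.

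**Figure D5:**
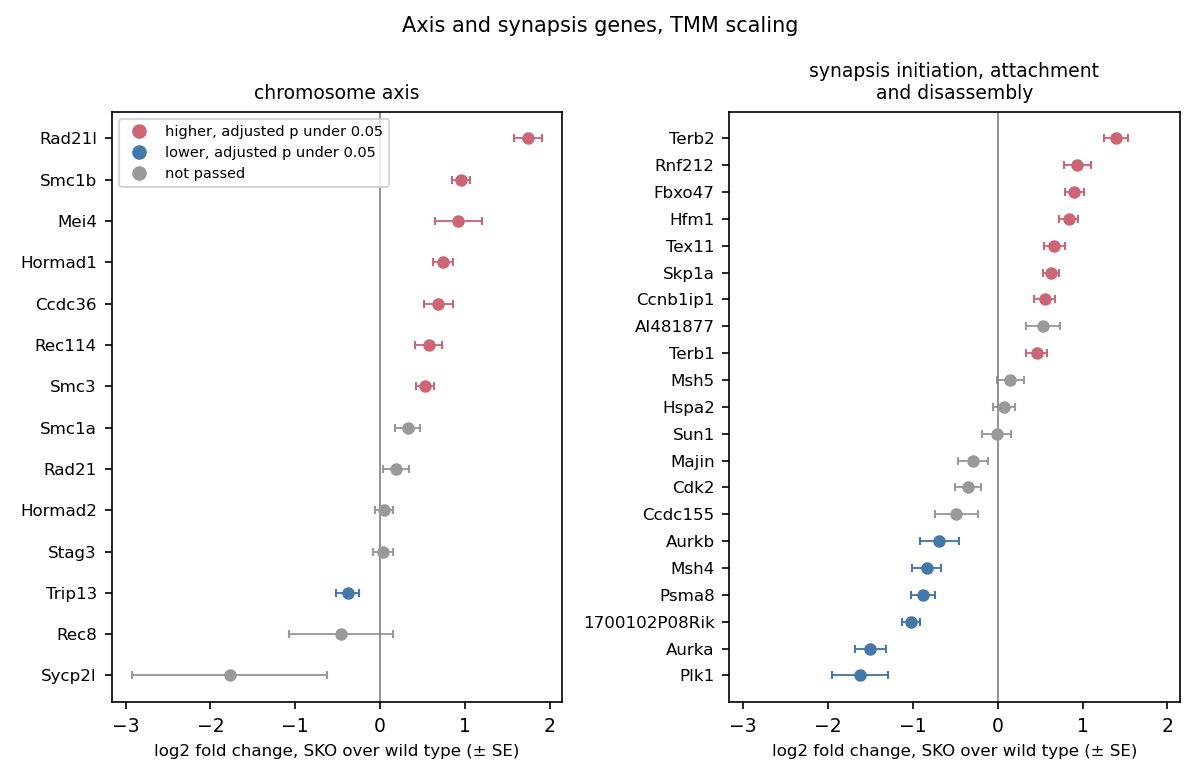
Log2 fold changes, SKO over wild type, with standard errors, of 14 chromosome axis genes and 21 genes of synapsis initiation, attachment and disassembly under TMM scaling; colours mark the call. The axis list has 7 increases and 1 decrease (Trip13), and the other list 8 and 6.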

How the data were processed

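Per the submitters' processing notes, reads were checked with FastQC, trimmed with Trim Galore 0.6.4 and aligned with HISAT2 2.0.5, and the builds named are GRCm38 and mm10. For the counting, no tool, annotation or strand setting was given in the sources used. What the authors deposited is 1 table of whole-number counts, without normalization, for 49584 genes. Each column was assigned by genotype and replicate number (CKO columns to SKO samples). GENCODE vM21 gave symbols for 49325 identifiers, positions, lengths and GC content.

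The counts were tested with edgeR 4.0.16 under R 4.3.3 (filterByExpr, TMM, quasi-likelihood test with genotype as the only term, two-sided). Benjamini-Hochberg adjustment ran over all 13474 tested genes, with a threshold of 0.05. Each SE is the absolute log2 fold change over the root of the F statistic. CPM are mean ± SD of 3 libraries, and levels between genes were divided by the exon length in kilobases. The script was tested on simulated data. Ratios were compared with exact permutation tests. Likeness of profiles is the root mean square difference of centred log2(CPM + 0.5).

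Alternatives were other scalings, filters, DESeq2 1.42.0, limma-voom (limma 3.58.1), robust fitting, a replicate block, each library left out, a threshold of 0.01, and removal of loess trends (span 0.3) with GC content and length. The last was also run with GC content or length alone, chosen after seeing the data. Named genes were all members, Srp68, the cohesin and HORMA genes, and 4 called partner genes in each direction by smallest p. The 3 nearest profiles to Sycp3, Sycp1 and Syce2 are also named, with members and Gm-number or Rik symbols left out of the search. Others are named where a count or overlap turns on them. The members and lists were chosen with earlier results of these data known. Of 37 partner genes listed, 35 were matched and 2 are not analysed here. Replicate numbers were checked for pairing and did not pair the libraries.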

Additional observations from a re-analysis of the deposited data

How the results depend on the processing

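The 9 member calls held with DESeq2 size factors, upper-quartile scaling, other filters, removal of mitochondrial and ribosomal protein genes, robust fitting, DESeq2, limma-voom, the threshold of 0.01 and each library left out (9 in each case). With the replicate block, 9 members, 22 partner genes and 3967 of all tested genes were called, and no member's call changed. As the numbers do not pair the libraries, the block is a description only. Library totals gave 8 member calls (Syce1 lost) and moved Sycp1 to 0.35 and Fkbp6 to −0.68. With them 1010 tested genes were higher and 3168 lower in place of 1901 and 1937 (24.2% higher in place of 49.5%), and the median of all genes moved from −0.03 to −0.29. The GC content and length correction gave 6 member calls, GC content alone 7 and length alone 9, with 3151, 3416 and 3520 of all tested genes called, and Sycp1 reversed to −0.14 with the first and to −0.0815 with GC content correction alone. Over all genes, 2372 passed at the threshold of 0.01 in place of 3838, and 2734 to 3767 passed with 1 library left out. With 1 library left out, the log2 difference of the central element over Sycp1 ranged from 0.49 to 0.54, of Sycp1 over the axial sum from −0.42 to −0.27 and of the central over the axial sum from 0.12 to 0.23. With the longest transcript as length they were 0.52, −0.35 and 0.17. Depth did not limit the members, whose lowest count was 4213.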

Other observations

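Profiles were compared with those of tested genes that are not members and have an established symbol (no Gm number or Rik name). The genes nearest in centred log2 CPM over the 6 libraries came from many functions. Nearest to Sycp3 were Sub1, a transcription coactivator gene (root mean square difference 0.0469 in log2), Ube2v2 (0.0567) and Mrps33 (0.058). Nearest to Sycp1 were Pdcd5 (0.0153), Srp9, a subunit of the signal recognition particle (0.0202), and the histone variant gene H2afz (0.0212). Nearest to Syce2 were Arpp19, a phosphatase inhibitor gene (0.0343), the translation initiation factor gene Eif2s2 (0.0393) and Hint3 (0.043). Eif2s2 went from a mean of 1327 to 3424 CPM, beside 1321 and 3272 CPM for Syce2. The measure mixes the difference between genotypes with that between replicates, over 6 libraries.

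Paralogues of the members were near the limit of detection. Syce1l had 8 to 29 counts in wild type and 4 to 14 in SKO libraries (edgeR adjusted p = 0.576), and Sycp2l 10 to 32 and 0 to 10 counts (adjusted p = 0.282).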
